A study of Populus tremula x Populus alba with 12 samples.

Results

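The phenylalanine ammonia-lyase family of a hybrid poplar is described here across 12 leaf libraries. Its members were listed by transcript ID under a rule that uses no measured value, although the family was chosen with earlier results of these data known. They are PAL1 (Potri.006G126800.1), PAL3 (Potri.016G091100.1), PAL4 (Potri.010G224100.1) and PAL5 (Potri.010G224200.1), 4 of the 16866 transcript rows of the count tables. Each of these loci had 1 row, and all 4 rows passed the filter on low counts. The IDs place PAL1 on chromosome 6, PAL3 on chromosome 16, and PAL4 and PAL5 next to each other on chromosome 10 of *Populus trichocarpa*, the species whose gene models name the rows. The names are published assignments to these IDs and were not checked against an annotation. PAL2 was not described as a member. Its ID was only among those of the monolignol list used below, and it had no tested row.

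Phenylalanine ammonia-lyase removes ammonia from phenylalanine and so makes cinnamic acid, the first step from primary metabolism into phenylpropanoids. Cinnamic acid leads to the monolignols of lignin, to flavonoids and condensed tannins, and to benzoic and salicylic acid derivatives. Poplar leaves are rich in tannins and in salicinoids, which are phenolic glycosides derived from this pathway. In *P. trichocarpa*, PAL4 and PAL5 are known as members abundant in wood-forming xylem, the tissue that lays down lignified secondary walls.

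The libraries came from fully expanded mid-stem leaves of *Populus tremula* × *P. alba* (hybrid clone INRA 717), grown in a greenhouse for 3 months from in vitro cultures. There were 3 libraries each of plants labelled Knockout, in which CRISPR was aimed at a glycosyltransferase, Intermediate Phenotype, Empty-Vector and Wild-type. The labels name neither the edited gene nor the edited lines, do not say what makes a phenotype intermediate, and do not tell if the 3 libraries sharing a genotype came from separate lines, so the spread behind each p-value is that among these libraries and may be technical. The empty-vector and wild-type libraries together are the 6 controls.

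Total counts ranged from 5.38 to 17.3 M per library, and the deepest library was empty-vector 2. The row published as the salicinoid glycosyltransferase UGT71L1 (Potri.016G014500.1) read 9.58 to 11.2 CPM for knockout, 21.5 to 35.7 CPM for intermediate, 33.5 to 77.2 CPM for empty-vector and 34.6 to 53.8 CPM for wild-type. Since the labels do not name the edited gene, this row does not check the genotypes. Libraries of 1 genotype stood apart in places that bear on the family. Knockout 3 differed from knockout 1 and 2 in PAL4 and PAL5, and empty-vector 1 and 3 differed from all other libraries in PAL3. These splits were not confined to the PAL rows. The chi-square of counts over rows, per degree of freedom, was 28.3 and 38.6 for knockout 3 against knockout 1 and 2, which gave 10.8. For empty-vector 2 it was 75.5 against empty-vector 1 and 65.7 against empty-vector 3, and between these it was 9.03. This measure also grows with library depth. Leaf mesophyll markers were not examined, since no annotation was used. Of 5 listed xylem cellulose synthases of the secondary wall, 3 were tested, and their summed level ran from 357 to 1527 CPM over the libraries. In such bulk samples, fewer cells of a type and less RNA per cell cannot be told apart.

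Together the 4 rows held 0.187% to 0.484% of a library's counts. Levels below are CPM, counts scaled to a fixed library total, on TMM-scaled library sizes, a scaling that takes most rows as unchanged between libraries. The tables give no transcript lengths, so values of different members are compared as counts and not as numbers of molecules.

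PAL1 was the member with the most counts in every library. It read 1627, 2487 and 2118 CPM for knockout, 1683, 2856 and 1900 CPM for intermediate, 2660, 2956 and 2207 CPM for empty-vector and 2650, 1451 and 1576 CPM for wild-type. The ranges of all 4 genotypes overlapped, and wild-type held both a library near the top and the lowest one of all. Over the 12 libraries its highest level was 2.04 times its lowest.

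PAL3 came second in counts in every library. It read 561, 796 and 915 CPM for knockout, 437, 1017 and 573 CPM for intermediate, 1611, 957 and 1356 CPM for empty-vector and 655, 437 and 535 CPM for wild-type. All 3 empty-vector libraries lay above all 3 wild-type libraries, and empty-vector 1 and 3 lay above every other library of the series. Its highest level was 3.69 times its lowest.

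PAL4 read 64.5, 79.6 and 22.1 CPM for knockout, 38.02, 58.6 and 33.9 CPM for intermediate, 70.6, 25.3 and 46.8 CPM for empty-vector and 37.1, 27.4 and 53.9 CPM for wild-type. Knockout alone spanned the whole range of the series, with the highest level in knockout 2 and the lowest in knockout 3. PAL5, its neighbour, followed at 67.1, 76.1 and 19.5 CPM for knockout, 38.8, 50.9 and 30.9 CPM for intermediate, 60.9, 24.2 and 41.2 CPM for empty-vector and 30.7, 27.4 and 48.4 CPM for wild-type. The genotypes overlapped for both genes. Their highest levels were 3.61 times (PAL4) and 3.90 times (PAL5) their lowest.

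**Figure D1:**
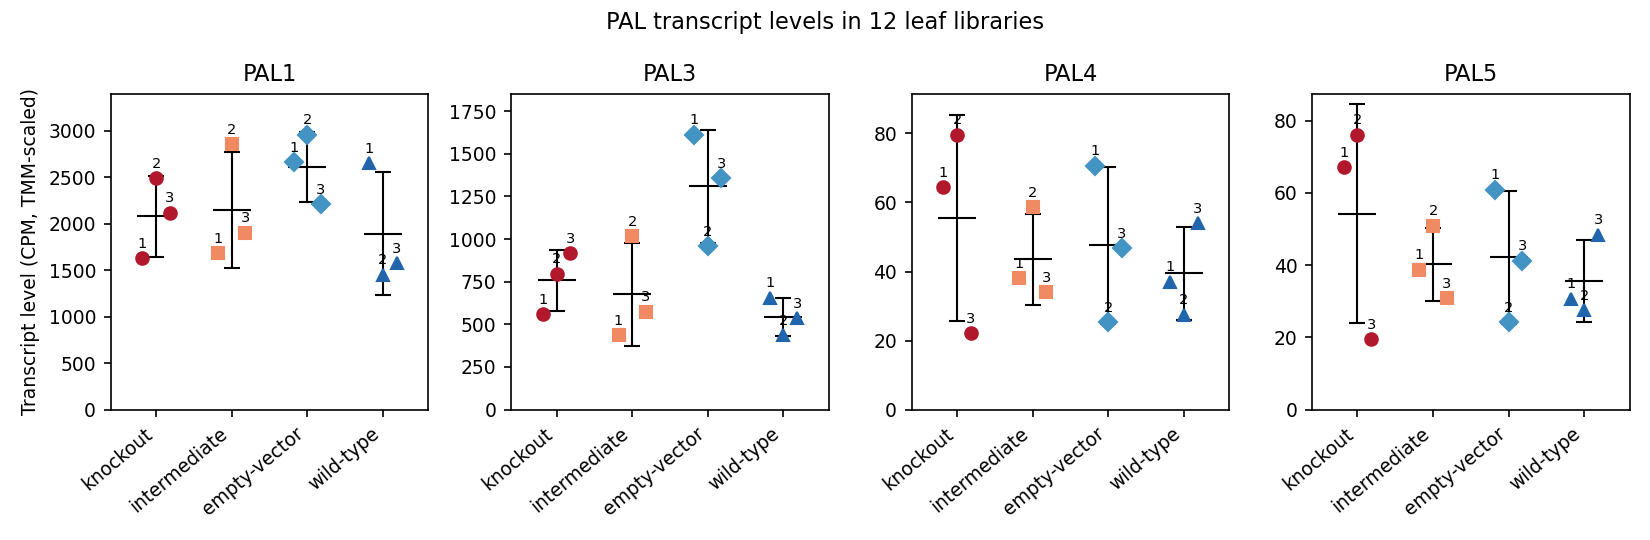
Transcript level (CPM, vertical axes from 0, a scale for each member) of PAL1, PAL3, PAL4 and PAL5 in the 4 genotypes. Points are libraries with their replicate numbers, and the bar with its whiskers is the mean ± SD of 3 libraries; empty-vector 1 and 3 are highest for PAL3, and knockout 2 and 3 are the extremes of PAL4 and PAL5.

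Fitted over all 12 libraries, PAL4 and PAL5 varied more within genotypes than PAL1 and PAL3, but not in every genotype. The biological coefficient of variation fitted by edgeR, which is the relative spread beyond counting error, was 25.2% for PAL1, 28.1% for PAL3, 38.9% for PAL4 and 38.4% for PAL5. The median of all 14279 tested rows was 20.8%. PAL1 thus stood above 68.8% of tested rows in spread, PAL3 above 77.2%, PAL4 above 92.0% and PAL5 above 91.6%. By genotype, the coefficient of variation of CPM was 53.9% (PAL4) and 56.0% (PAL5) in knockout, where PAL1 had 20.8% and PAL3 23.8%. In empty-vector PAL4 and PAL5 were also the more variable, at 47.7% and 43.5%, with PAL1 at 14.5% and PAL3 at 25.2%. In intermediate PAL3 was the most variable member at 44.9%, with PAL1 at 29.1%, PAL4 at 30.4% and PAL5 at 25.1%. In wild-type PAL1 was the most variable at 34.8%, with PAL3 at 20.2%, PAL4 at 34.0% and PAL5 at 31.8%.

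The family's counts were shared out in a stable order, but not in fixed proportions. PAL1 held 70.5% ± 1.73 of the family counts for knockout, 74.4% ± 2.49 for intermediate, 65.2% ± 8.18 for empty-vector and 74.8% ± 3.69 for wild-type (SD, n = 3 each). PAL3 held 25.7% ± 3.56 for knockout, 22.7% ± 2.83 for intermediate, 32.6% ± 7.35 for empty-vector and 22.0% ± 2.41 for wild-type (SD, n = 3 each). The empty-vector libraries were split: the PAL3 share was 36.6% in empty-vector 1 and 37.2% in empty-vector 3, against 24.2% in empty-vector 2. In the other 9 libraries the PAL3 share lay between 19.4% and 29.8%. Shares were described and not tested.

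PAL1 CPM divided by PAL3 CPM shows the same pattern within the larger pair. This ratio was 2.90, 3.12 and 2.31 for knockout, 3.85, 2.81 and 3.32 for intermediate, 1.65, 3.09 and 1.63 for empty-vector and 4.04, 3.32 and 2.94 for wild-type. Empty-vector 1 and 3 were the lowest of the 12, and knockout 3 was the next lowest.

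PAL4 and PAL5 together held 5.67%, 4.53% and 1.35% of the family counts for knockout, 3.50%, 2.75% and 2.55% for intermediate, 2.99%, 1.25% and 2.41% for empty-vector and 2.01%, 2.82% and 4.62% for wild-type. Knockout 1 and 2 and wild-type 3 were the libraries with the largest share of this pair, and empty-vector 2 and knockout 3 those with the smallest. The genotypes overlapped throughout.

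**Figure D2:**
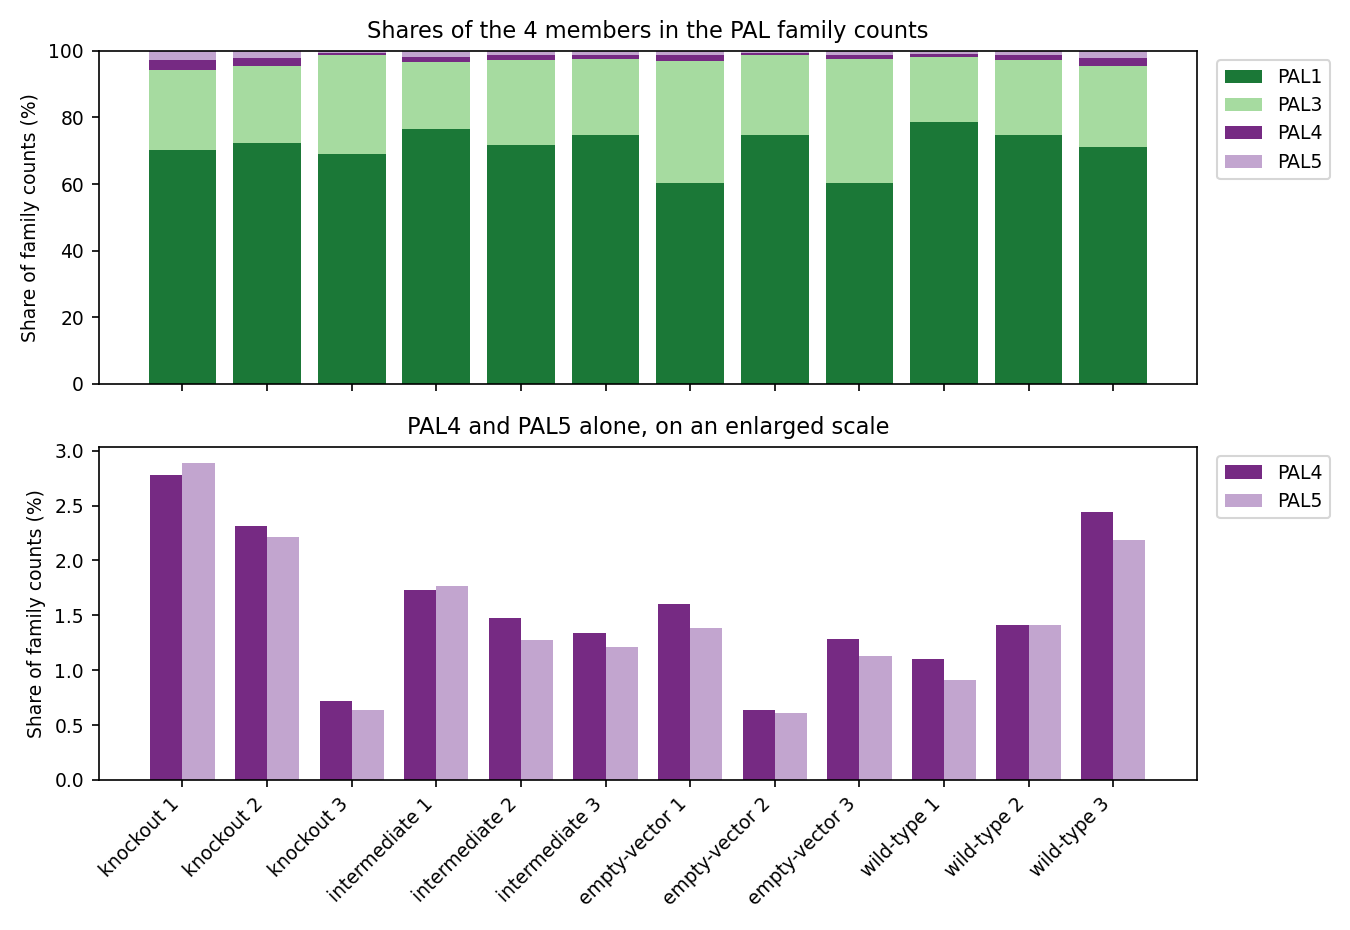
Share of the family counts (%) held by each member in each of the 12 libraries, with all 4 members stacked to 100% in the upper panel and PAL4 and PAL5 alone in the lower panel. The PAL3 share is largest in empty-vector 1 and 3, and the PAL4 and PAL5 bars rise and fall together.

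Within the chromosome 10 pair the split hardly moved. PAL5 made up between 45.3% and 51.0% of the pair's counts. The value was lowest in wild-type 1 (exact Clopper-Pearson 95% interval 40.05% to 50.7%) and highest in knockout 1 (47.4% to 54.6%), and all 12 intervals, which cover counting error only, held a value in common. The pair's total moved over the same libraries between 41.6 and 156 CPM. PAL4 and PAL5 are close copies whose reads can be split or lost by counting in ways the sources used here do not state, so the even split and each gene's own level are uncertain.

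Covariation over libraries put the family into 2 pairs. Pearson's r of log2 CPM was 0.985 between PAL4 and PAL5 (n = 12, permutation p = 1e-05, the smallest the 100000 permutations can give; adjusted over the 6 pairs of members 6e-05), with a Spearman's rho of 0.986 (permutation p = 1e-05, adjusted 6e-05). Between PAL1 and PAL3, r was 0.750 (n = 12, permutation p = 0.0063, adjusted 0.019) and rho was 0.804 (permutation p = 0.0024, adjusted 0.0073). Reads shared between PAL4 and PAL5 could enter both rows, and their part in that relation was not tested.

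The 4 relations across the pairs did not pass. They had r of 0.126 (PAL1 and PAL4), 0.0267 (PAL1 and PAL5), 0.25 (PAL3 and PAL4) and 0.149 (PAL3 and PAL5), with rho of 0.105, 0.0280, 0.196 and 0.133 in the same order and n = 12. The permutation p of r were 0.69, 0.93, 0.43 and 0.64 (adjusted 0.83, 0.93, 0.83 and 0.83). The permutation p of rho were 0.75, 0.94, 0.54 and 0.68 (adjusted 0.90, 0.94, 0.90 and 0.90).

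The PAL4 and PAL5 relation held at r = 0.976 (n = 10, permutation p = 3e-05, adjusted 0.00018) without the 2 libraries farthest from the PAL4 median, knockout 2 and 3. It held at r = 0.987 (exact permutation within genotypes, p = 0.00077, adjusted 0.0046) for deviations from the genotype means. That p is the smallest the 1296 arrangements can give. The PAL1 and PAL3 relation was less secure. Without wild-type 2 and 3, the libraries farthest from the PAL1 median, r was 0.651 (n = 10, permutation p = 0.045, adjusted 0.13). The call was lost there, though with fewer libraries as well. Without wild-type 2 alone r was 0.693 (n = 11, permutation p = 0.020, adjusted 0.060). For deviations from genotype means r was 0.670 (exact permutation within genotypes, p = 0.047, adjusted 0.14), and without empty-vector 1 and 3, a choice made after their values were seen, it was 0.864 (permutation p = 0.0033, adjusted 0.0098). These 3 steps left the relations across the pairs between −0.0899 and 0.292.

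**Figure D3:**
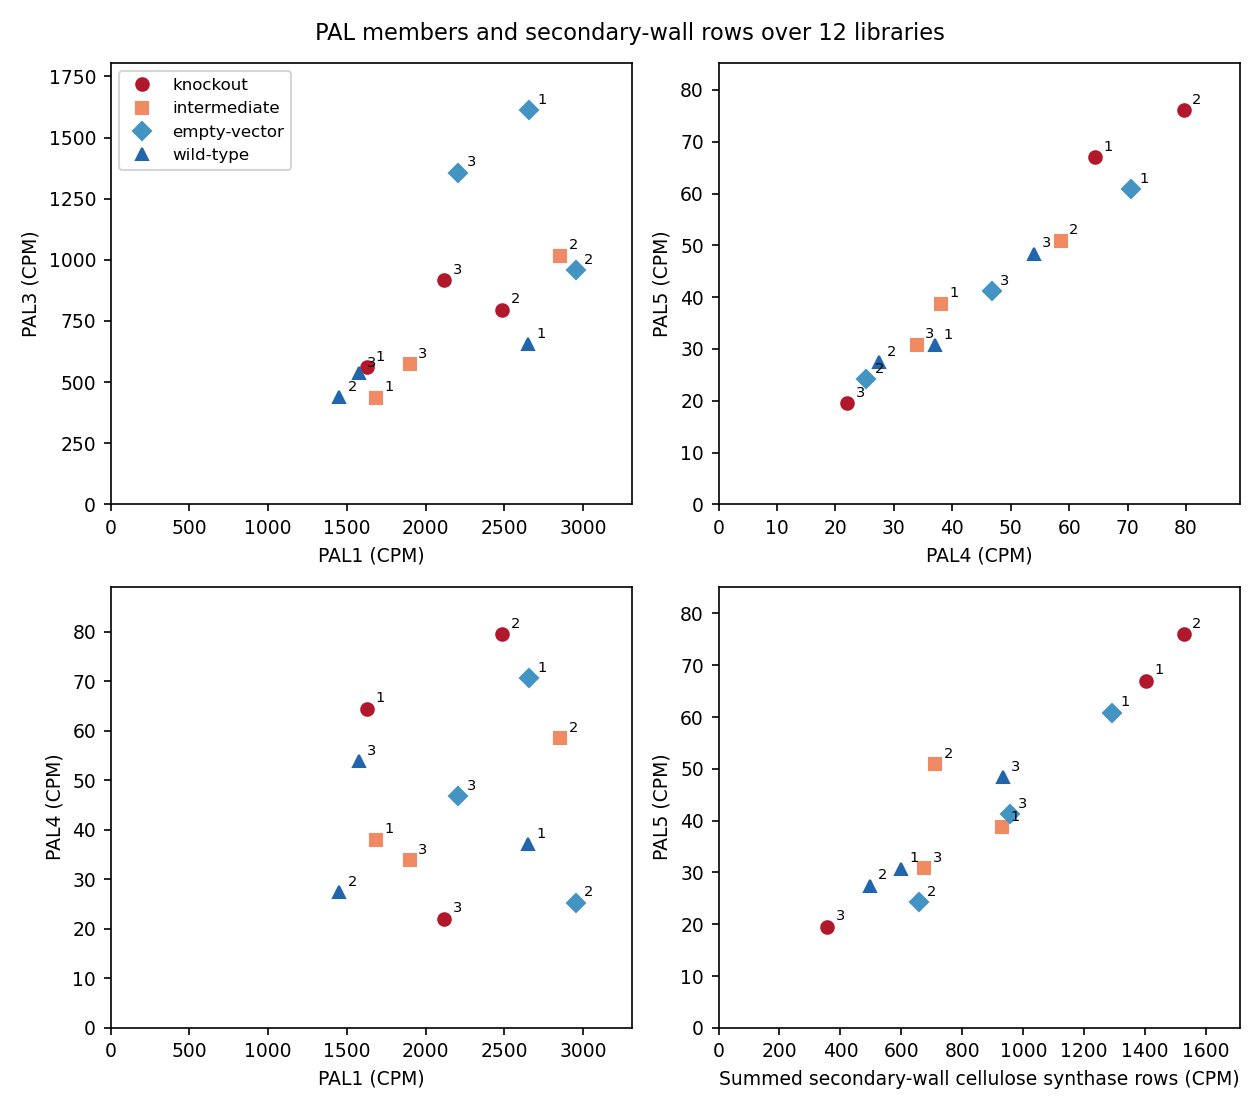
CPM of PAL3 against PAL1, PAL5 against PAL4, PAL4 against PAL1, and PAL5 against the summed CPM of the 3 tested secondary-wall cellulose synthase rows, with axes from 0. Points are the 12 libraries by genotype with replicate numbers; PAL4 and PAL5 lie along a line (r = 0.985 on the log2 scale), PAL1 and PAL4 do not (r = 0.126).

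The rows whose pattern was most like each member were then sought among the other 10002 tested rows with a mean of at least 5 CPM, by Pearson's r of log2 CPM over the 12 libraries. These values are descriptions, and rows of 1 library share its depth and tissue makeup. PAL4 and PAL5 each ranked 1 for the other. PAL3 ranked 2 for PAL1, while PAL1 ranked 110 for PAL3. For deviations from genotype means, PAL3 ranked 127 for PAL1 and PAL1 ranked 629 for PAL3. In that setting PAL5 ranked 2 for PAL4 and PAL4 ranked 4 for PAL5. The ranks that follow are again over all 12 libraries. PAL4 ranked 2932 and PAL5 4542 for PAL1.

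Apart from the members, PAL1 was nearest to Potri.001G167900.1 (r = 0.751) and Potri.006G171200.1 (r = 0.737), and no row reached r = 0.8 with it. PAL3 was nearest to Potri.014G055700.1 (r = 0.952) and Potri.004G188100.1 (r = 0.95), and 36 rows (0.36%) reached 0.8. PAL4 was nearest to Potri.016G042400.1 (r = 0.951) and Potri.019G036000.1 (r = 0.945), with 145 rows (1.45%) at 0.8 or above. For PAL5 the nearest were F5H1 (Potri.005G117500.1, r = 0.967), published as a ferulate 5-hydroxylase of syringyl lignin synthesis, and Potri.014G014500.1 (r = 0.948), with 143 rows (1.43%) at 0.8 or above. The other rows carry no gene name in the files.

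Most of the later monolignol enzymes measured here followed PAL4 and PAL5, and much less PAL1 and PAL3. The list held 20 published IDs, with PAL2 among them, of which 11 were in the files and 9 had a mean of at least 5 CPM. PAL2 was not among these 9. With these 9 rows, the median r was 0.842 for PAL4 and 0.807 for PAL5, against 0.0468 and 0.0413 for all rows. Of the 9 rows, 6 reached r = 0.8 with PAL4 and 5 with PAL5. C4H2 (Potri.019G130700.1), the cinnamate 4-hydroxylase that acts on the product of PAL, had r of 0.834 with PAL4 and 0.768 with PAL5, against 0.280 with PAL1 and 0.569 with PAL3. For C4H2 the contrast with PAL3 depended on knockout 3. Without that library, left out after its values were seen, r was 0.781 with PAL4, 0.691 with PAL5, 0.738 with PAL3 and 0.320 with PAL1. The median r of the list was 0.0974 for PAL1 and 0.177 for PAL3, where all rows gave −0.00087 and 0.0486. Without knockout 3 the list's median r was 0.119 for PAL1, 0.316 for PAL3 and 0.765 for PAL5. The row least like PAL4 was Potri.016G078300.1 (r = −0.0839), which had −0.121 with PAL5. Without knockout 3 these values were −0.314 and −0.378. Potri.003G188500.1, published as 4CL5, had r of 0.624 with PAL4 and 0.551 with PAL5, and 0.461 and 0.334 without knockout 3.

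Both secondary-wall cellulose synthase rows above 5 CPM moved with this pair of genes. These enzymes make the cellulose of xylem walls and are active in veins. CesA4 (Potri.002G257900.1) had r of 0.872 with PAL4 and 0.915 with PAL5, and Potri.018G103900.1 had 0.907 and 0.926. Of the 5 listed loci 3 were tested, and the third (Potri.011G069600.1) read at most 2.85 CPM. The summed level of the 3 rows was 1402, 1527 and 357 CPM for knockout, 930, 712 and 676 CPM for intermediate, 1291, 658 and 956 CPM for empty-vector and 599, 497 and 933 CPM for wild-type. Knockout 2, knockout 1 and empty-vector 1 were the 3 highest and knockout 3 the lowest, as for PAL4 and PAL5, and the part of vein content in these values was not tested. Without knockout 3, chosen after its values were seen, r with PAL4 was still 0.826 and 0.892 for these 2 cellulose synthase rows, and the median r of the monolignol list with PAL4 was 0.795. With PAL1 the 2 rows had r of 0.0095 and 0.0514, and with PAL3 0.133 and 0.193.

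Over all 12 libraries, flavonoid and condensed tannin genes had their highest median r with PAL3, but this order turned in some other settings. The list held 16 published IDs, of which 7 were in the files and 6 had a mean of at least 5 CPM. Their median r was 0.701 with PAL3, 0.344 with PAL1, 0.542 with PAL4 and 0.473 with PAL5. With PAL3, 2 of the 6 rows reached 0.8, the highest being Potri.001G113100.1 (r = 0.859). That row read 1368 and 301 CPM in empty-vector 1 and 3, and between 6.47 and 85.8 CPM in the other 10 libraries. Without these 2 empty-vector libraries the list's median r was 0.232 with PAL3, 0.462 with PAL4 and 0.427 with PAL5. For deviations from genotype means it was 0.528 with PAL3, 0.773 with PAL4 and 0.713 with PAL5. PAL4 and PAL5 were thus nearer to the list than PAL3 in both settings. Without knockout 3 the order stayed, with a median r of 0.776 with PAL3, 0.543 with PAL4 and 0.474 with PAL5. F3'5'H (Potri.009G069100.1), a flavonoid 3',5'-hydroxylase, had r of −0.0199 with PAL3.

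**Figure D4:**
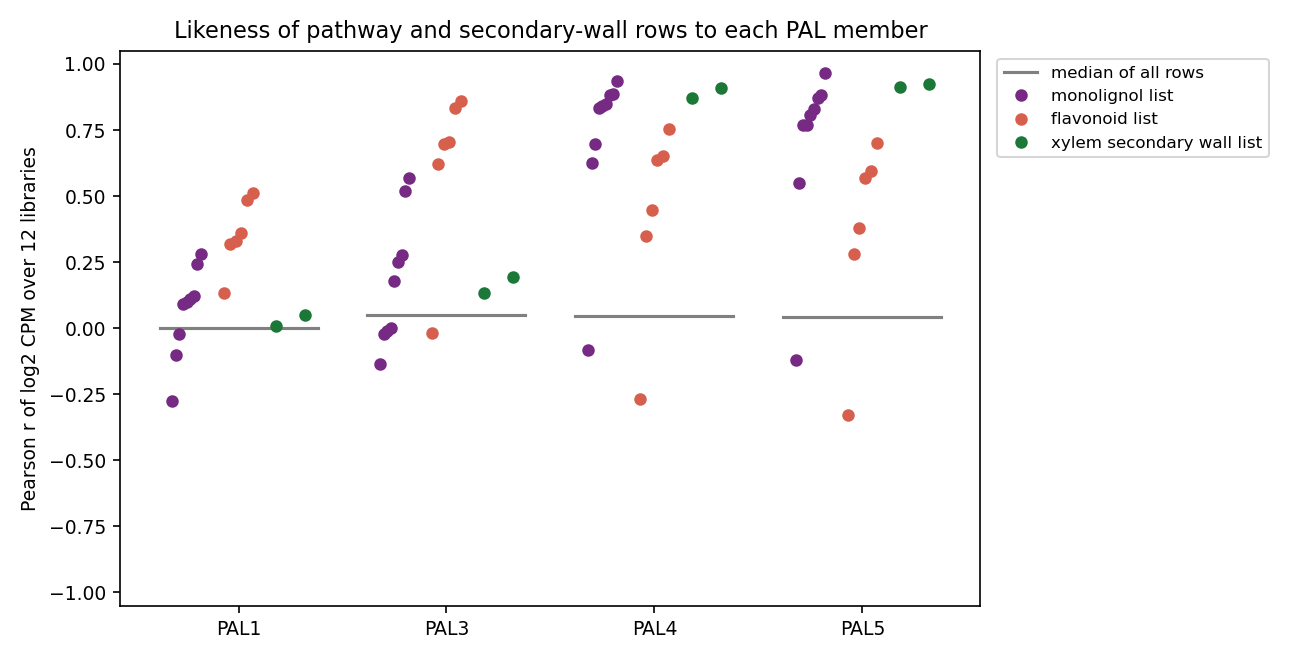
Pearson's r of log2 CPM over 12 libraries (vertical axis) between each PAL member and the rows of the monolignol (9 rows), flavonoid (6 rows) and xylem secondary-wall (2 rows) lists, 1 point a row; grey lines are the medians over all 10002 rows. For PAL4 and PAL5 most monolignol points and both secondary-wall points lie near or above 0.8, and for PAL1 no point does.

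The comparison of knockout with the 6 controls asked whether transcripts of the pathway's entry step differed where CRISPR was aimed at a glycosyltransferase. None of the 4 members was called by edgeR's quasi-likelihood test at an adjusted p under 0.05, where 30.1% of all tested rows were. At an unadjusted p under 0.05 there were 0 members against 40.7% of rows, and DESeq2 and limma-voom also called 0. PAL1 had a knockout mean of 2077 ± 431 CPM (SD, n = 3), against 2250 ± 620 CPM over the 6 controls (SD), with a fold change of 0.935 (95% interval 0.648 to 1.35; edgeR adjusted p = 0.80). PAL3 had a knockout mean of 757 ± 181 CPM (SD, n = 3), against 925 ± 473 CPM over the 6 controls (SD), with a fold change of 0.899 (95% interval 0.596 to 1.36; edgeR adjusted p = 0.71). Both intervals end short of a 2-fold difference in either direction from the pooled controls. For PAL3 the value depends on which controls are used: the log2 fold change was −0.79 against empty-vector alone (edgeR adjusted p = 0.089) and 0.48 against wild-type alone (edgeR adjusted p = 0.27).

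PAL4 and PAL5 were measured less sharply in this comparison. PAL4 had a knockout mean of 55.4 ± 29.8 CPM (SD, n = 3), against 43.5 ± 17.2 CPM over the 6 controls (SD), with a fold change of 1.27 (95% interval 0.705 to 2.29; edgeR adjusted p = 0.54). PAL5 had a knockout mean of 54.2 ± 30.4 CPM (SD, n = 3), against 38.8 ± 14.1 CPM over the 6 controls (SD), with a fold change of 1.39 (95% interval 0.782 to 2.49; edgeR adjusted p = 0.38). A 2-fold rise lies inside both intervals. Single knockout libraries moved these values. Without knockout 3 the log2 fold changes were 0.69 for PAL4 and 0.84 for PAL5 (edgeR adjusted p = 0.14 and 0.051), and without knockout 2 they were −0.01 and 0.16 (edgeR adjusted p = 0.99 and 0.84). In no member did the knockout libraries lie apart from all controls, as they did in 27.8% of tested rows.

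Among the other enzymes of the pathway, 0 of 10 tested monolignol rows were called between knockout and controls by edgeR, DESeq2 or limma-voom, with 3 at an unadjusted p under 0.05 by each. Their median log2 fold change was −0.09, and that of the 4 PAL members 0.13, where all rows gave −0.02. C4H2, the most abundant, had a mean of 949 ± 191 CPM over 3 knockout libraries (SD), against 1060 ± 235 CPM over 6 controls (SD; edgeR adjusted p = 0.60). The next most abundant, Potri.001G304800.1, had a log2 fold change of −0.35 (edgeR adjusted p = 0.46). Of 6 tested flavonoid rows, 2 were called by all 3 tools, a share near the 30.1% of all tested rows that edgeR called in either direction. Both were lower in knockout, where edgeR called 1857 of 14279 rows lower. F3'5'H had a knockout mean of 10.0 ± 4.04 CPM (SD, n = 3), against 36.2 ± 11.9 CPM over the 6 controls (SD), with a fold change of 0.281 (95% interval 0.159 to 0.497; edgeR adjusted p = 0.0031). F3H (Potri.005G113900.1), a flavanone 3-hydroxylase, moved by a log2 value of −1.31 ± 0.42 (SE), at an edgeR adjusted p of 0.032, and −0.61 without empty-vector 1 and 3 (edgeR adjusted p = 0.13). Over its alternatives the adjusted p of F3H ranged from 0.0020 to 0.33. The call was also lost without wild-type 3 or any 1 knockout library, with adjusted p of 0.0502, 0.10, 0.057 and 0.085, and against wild-type alone (adjusted p = 0.33). Of the 3 cellulose synthase rows 0 were called by any of the 3 tools, with 0 at an unadjusted p under 0.05.

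Knockout was next set against the intermediate plants. Again 0 of 4 members were called by edgeR, where 17.4% of tested rows were, and 0 passed at an unadjusted p under 0.05, where 31.1% did. DESeq2 and limma-voom called 0 as well. The fold changes were 0.968 for PAL1 (95% interval 0.635 to 1.48), 1.121 for PAL3 (0.699 to 1.80), 1.27 for PAL4 (0.636 to 2.53) and 1.35 for PAL5 (0.681 to 2.66), with edgeR adjusted p of 0.93, 0.76, 0.66 and 0.56. Each member's knockout libraries overlapped with the intermediate ones, while 35.1% of all rows had no overlap. Of the 10 monolignol rows 0 were called by edgeR, DESeq2 or limma-voom, with 0 at an unadjusted p under 0.05. Of the 6 flavonoid rows 1 was called by all 3 tools, a share near the 17.4% of all rows that edgeR called in either direction. It was lower in knockout, where edgeR called 1058 of 14279 rows lower. The called row was F3'5'H, with a knockout mean of 10.0 ± 4.04 CPM, against 41.5 ± 19.9 CPM over the intermediate libraries (SD, n = 3 each; edgeR adjusted p = 0.0051).

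No difference between intermediate plants and the pooled controls was detectable in the family. None of the 4 members was called by edgeR, DESeq2 or limma-voom, and 0 passed at an unadjusted p under 0.05. Over all rows, edgeR called 0.00700%, 6.39% had an unadjusted p under 0.05 and 2.73% had no overlap, which each member's libraries did have. Fold changes were 0.966 for PAL1 (95% interval 0.670 to 1.39), 0.802 for PAL3 (0.530 to 1.21), 1.00 for PAL4 (0.552 to 1.82) and 1.04 for PAL5 (0.575 to 1.87). The edgeR adjusted p were 0.999 for PAL1, PAL4 and PAL5 and 0.95 for PAL3. These intervals end short of a 2-fold difference in either direction from the pooled controls. For PAL3 the log2 fold change was −0.95 against empty-vector alone (edgeR adjusted p = 0.29) and 0.32 against wild-type alone (edgeR adjusted p = 0.94). Of the 10 monolignol and 6 flavonoid rows 0 were called by edgeR, DESeq2 or limma-voom, with 0 and 1 at an unadjusted p under 0.05. This comparison and that of knockout share the 6 control libraries.

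Between the control genotypes, PAL3 was the member with the largest difference. It had an empty-vector mean of 1308 ± 330 CPM, against a wild-type mean of 543 ± 109 CPM (SD, 3 libraries each), with a fold change of 2.41 (95% interval 1.49 to 3.89). It did not pass in edgeR (adjusted p = 0.17), where 0.0420% of tested rows did, nor in limma-voom. It passed in DESeq2 (adjusted p = 0.021), which called 243 rows in all. All 3 empty-vector libraries lay above all wild-type libraries for PAL3, and 18.8% of tested rows had no overlap here. PAL3 was also the 1 member with an unadjusted p under 0.05, as were 16.9% of rows. Without empty-vector 2, the lowest of its group, edgeR called PAL3 (log2 fold change 1.38, adjusted p = 0.027), among 1302 rows called in that setting. With empty-vector 2 as the only library of its group, which is then assumed to vary like the others, the log2 fold change was 0.86 (edgeR adjusted p = 0.998).

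The other 3 members did not pass between the control genotypes in edgeR, DESeq2 or limma-voom. PAL1 had an empty-vector mean of 2608 ± 377 CPM, against a wild-type mean of 1892 ± 659 CPM (SD, 3 libraries each), with a fold change of 1.38 (95% interval 0.903 to 2.10; edgeR adjusted p = 0.41). The fold changes of PAL4 and PAL5 were 1.20 (95% interval 0.603 to 2.39; edgeR adjusted p = 0.80) and 1.18 (95% interval 0.598 to 2.33; edgeR adjusted p = 0.81). The 4 members, without PAL2, summed to between 3651 and 4403 CPM over the empty-vector libraries, against 1943 to 3374 CPM over the wild-type ones. These sums did not overlap, as was so for 18.8% of tested rows. Taken singly, PAL1, PAL4 and PAL5 each overlapped between these genotypes, and PAL3 did not. Knockout summed to 2319 to 3439 CPM and intermediate to 2196 to 3982 CPM. Of the 10 monolignol rows 0 were called by edgeR, DESeq2 or limma-voom, with 0 at an unadjusted p under 0.05. Of the 6 flavonoid rows edgeR and limma-voom called 0 and DESeq2 called 2, both higher in empty-vector. At an unadjusted p under 0.05 there were 5 of these 6 by edgeR, 5 by DESeq2 and 2 by limma-voom. Over all rows edgeR gave 16.9%. The list's median log2 fold change by edgeR was 2.96, where all rows gave 0.05. The 6 rows are not independent. Potri.003G176700.1, Potri.003G176800.1 and Potri.003G176900.1, all published as CHS, have neighbouring IDs and were all highest in empty-vector 1, at 123, 79.5 and 71.7 CPM. In empty-vector 2 they read 5.36, 3.15 and 2.27 CPM, against wild-type means of 7.95, 2.79 and 3.53 CPM. F3H, 1 of the 6, read 471, 96.9 and 240 CPM in the 3 empty-vector libraries, against a wild-type mean of 104 ± 13.6 CPM (SD, n = 3), and was highest in empty-vector 1 and 3, as was PAL3. In this comparison, in that of knockout with intermediate and in that of intermediate with controls, 0 of the 3 cellulose synthase rows were called by edgeR, DESeq2 or limma-voom, with 0 at an unadjusted p under 0.05.

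**Figure D5:**
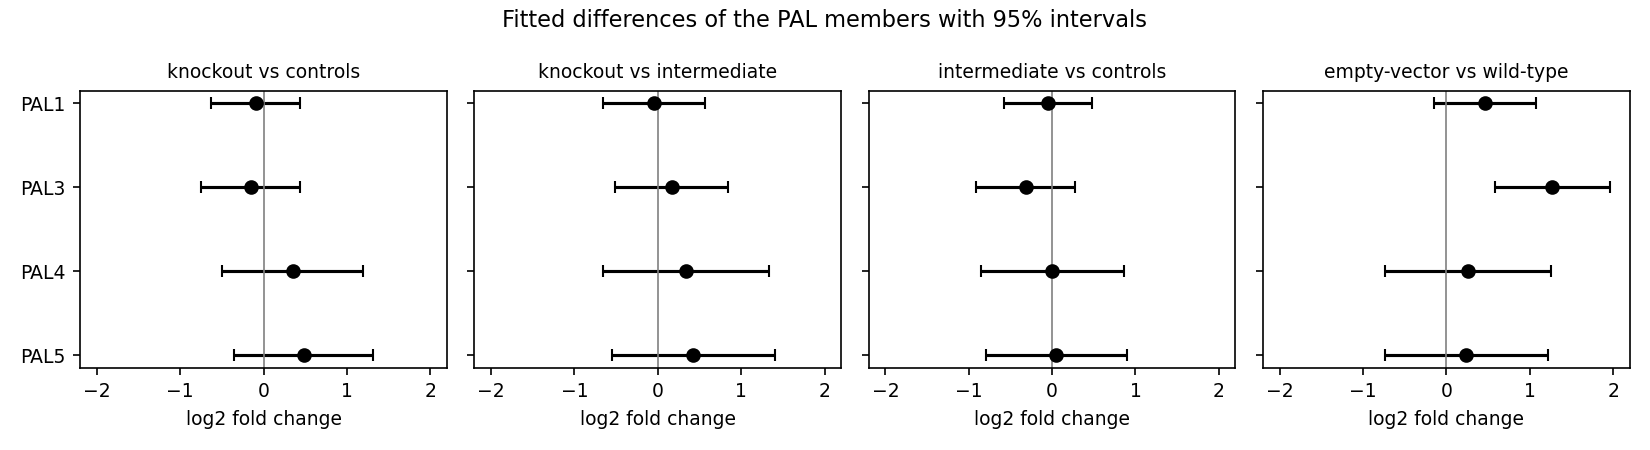
Log2 fold change (horizontal axes) of each PAL member in the 4 comparisons, with points for the edgeR estimate and bars for its 95% interval over all 12 libraries; positive values are higher in the genotype named first. Only the interval of PAL3 in empty-vector against wild-type leaves out 0, and its adjusted p was 0.17.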

How the data were processed

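Whole-number counts per transcript row were deposited by the authors as 1 table per library; per the submitters' processing notes, HISAT2, SAMtools, Cufflinks, HTSeq and DESeq2 were used. For tool roles and versions, genome build and strand setting, nothing was found: not given in the sources used here. Column sums differed between libraries, as in counts that were not normalised.

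Counts were fitted in R 4.3.3 with edgeR 4.0.16: filterByExpr, with 10 counts as its minimum, 15 as its minimum total and a proportion of 0.7, kept 14279 of 16866 rows and 99.8% of counts, scaling was TMM, and all 12 libraries entered 1 fit without covariates, which left 8 residual degrees of freedom. Tests were two-sided quasi-likelihood tests with Benjamini-Hochberg adjustment over all tested rows at 0.05. Library totals were 5.38 to 17.3 M counts (median 6.18 M). Exact binomial intervals cover counting error only, and fold-change intervals from edgeR include the fitted spread between libraries. Replicate numbers were given in accession order within a group and only name a library. Controls were the average of the empty-vector and wild-type means. DESeq2 1.42.0 and limma 3.58.1 (voom) were alternatives. Replicate libraries differed by at least 8.48 times the chi-square expected from sampling. Correlations used log2 CPM (prior count 2) in Python 3.11.15 with 100000 two-sided permutations, or all 1296 arrangements within genotypes.

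Members, lists, the rule for named rows (the 2 nearest rows by r for each member, and from each list up to 2 called rows in each direction or the most abundant) and alternatives were chosen with earlier results of these data known. C4H2 was named beside r values as the next enzyme, and extreme rows of a list were named after their values were seen. List names are published assignments recalled for the IDs.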

Additional observations from a re-analysis of the deposited data

How the results depend on the processing

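No paired analysis was possible because the labels give no replicate numbers shared between groups: the numbers used here follow accession order and pair nothing. No PAL member was called in comparisons with knockout or intermediate under any of the alternatives. Leaving out empty-vector 1 and 3 was chosen after seeing the data, and the remaining library was assumed to vary like the other groups. Causes of changes were not tested. The share of each member in the family counts moved by less than 1 SD under its alternatives. Leaving out 1 of 3 libraries cannot move their mean by 1 SD, and summing counts only reweights the same libraries. The stability of the shares was therefore not tested. For PAL3 in empty-vector the mean share was 32.6%, and 30.4% to 36.9% without 1 library.

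Between empty-vector and wild-type, DESeq2 called 1 PAL member, and leaving out 1 library gave 0 to 1. The rows called there were 6, but 243 by DESeq2, 3 with upper-quartile scaling, 0 with only these groups fitted, 0 without empty-vector 1 and 3, and 0 to 1302 without 1 library (1302 without empty-vector 2). For intermediate against controls the 1 row became 2 with no filter, 63 by DESeq2, 18 against empty-vector alone, 0 against wild-type alone, 0 with only these groups, 0 without empty-vector 1 and 3, and 0 to 3 without 1 library. For knockout against intermediate, leaving out 1 library gave 1566 to 2642 rows, against 2478.

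The PAL1 and PAL3 correlation lost its call at 0.670 on deviations from genotype means and 0.651 without its farthest libraries, and ranged from 0.693 (without wild-type 2, call lost) to 0.815 without 1 library. Uncalled correlations changed sign. PAL1 with PAL5 was −0.016 with DESeq2-type size factors, −0.021 with upper-quartile scaling, −0.011 on deviations, −0.069 without the farthest libraries, −0.075 without empty-vector 1 and 3, and −0.12 to 0.21 without 1 library. Without the farthest libraries, which are empty-vector 1 and 3, PAL3 with PAL4 was −0.0085 and PAL3 with PAL5 −0.0899. Without 1 library PAL3 with PAL5 was −0.037 to 0.27, and PAL1 with PAL4 −0.038 to 0.35.

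Uncalled log2 fold changes near 0 also changed sign. Against wild-type alone, knockout gave 0.13 for PAL1 and 0.48 for PAL3, and intermediate gave 0.18 and 0.32. Against empty-vector alone, knockout gave −0.33 and −0.79, and intermediate gave −0.28 and −0.95. Without empty-vector 1 and 3, PAL3 was 0.041 in knockout against controls, and PAL4 and PAL5 were −0.60 and −0.51 in empty-vector against wild-type. For intermediate against controls PAL4 was −5.3e-05 with upper-quartile scaling, −0.019 with 10 counts in 6 libraries, −0.017 with only these groups and −0.13 against empty-vector alone, where PAL5 was −0.067. Leaving out 1 library gave, for knockout against controls, −0.24 to 0.061 (PAL1), −0.37 to 0.026 (PAL3) and −0.0074 to 0.69 (PAL4). For knockout against intermediate it gave −0.20 to 0.21 (PAL1), −0.072 to 0.58 (PAL3) and −0.013 to 0.70 (PAL4). For intermediate against controls it gave −0.31 to 0.11 (PAL1), −0.27 to 0.21 (PAL4) and −0.15 to 0.23 (PAL5). For empty-vector against wild-type it gave −0.14 to 0.56 (PAL4) and −0.13 to 0.53 (PAL5).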
